A study of Mus musculus and Rattus norvegicus with 14 samples.

Results

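The 3 mouse heart libraries labelled Sham, called Sham 1, Sham 2 and Sham 3 by their titles, are described here on their own, without comparison to the treated or diseased hearts of the same series. They were chosen by that treatment label, and they are 3 of the 14 libraries in the series, which also holds 9 libraries of other mouse hearts and 2 of rat heart cells. The labels give the tissue as heart and the treatment as Sham, with no further agent, allele or transgene. Strain, sex, age, the sham procedure, the time of day and the part of the heart are not stated by the labels. Nor do the labels say that the 3 libraries came from separate animals, so the spread between them may be technical.

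In the adult heart, cardiomyocytes fill most of the organ's volume with sarcomeres, the repeating units of actin and myosin filaments, and with mitochondria. Most proteins of these structures belong to families of paralogs, related genes of which one is used in the adult ventricle and others in the atria, the fetal heart, skeletal muscle or nonmuscle cells. In the rodent ventricle the fast alpha myosin heavy chain replaces the slow beta chain after birth, and fatty acids replace glucose as the main fuel. Endothelial cells, fibroblasts, pericytes and macrophages share the tissue with the muscle cells, so a whole-heart library mixes all of them. In such bulk RNA, fewer cells of a type and less RNA per cell cannot be told apart.

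Levels are given as scaled FPKM, that is, reads per gene divided by gene length and by a total the authors set for each library, then by a factor close to 1 that equalises the 3 libraries. That total was 0.828 to 0.942 of the recovered reads of a library, and what it counted is not given in the sources used here. Values in a row of 3 always stand for Sham 1, Sham 2 and Sham 3, and an error is the SD over these 3 libraries. Recovered reads summed over genes to between 13897535 and 15034030 per library, and for a gene 1 kilobase long each read added 0.0764 to 0.0805 FPKM. A gene counted as detected at 1 scaled FPKM or more in every library, which 11099 of 54532 genes reached, among them 10269 protein-coding genes. Members of a gene family are said to lie apart when every value of one exceeded every value of the other over the 3 libraries, and to overlap otherwise. With 3 paired values no two-sided exact permutation test can give a p below 0.25, so no test was run. Between pairs of libraries, 86.1% to 91.8% of detected genes lay within 1.5-fold of each other.

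The marker genes were those of heart. All 11 cardiomyocyte markers were detected, from Actc1 at 7873 ± 712 scaled FPKM down to Ttn at 24.95 ± 2.88 (SD, n = 3 each). The 5 markers of ventricular cardiomyocytes were detected too, led by Myl2, the ventricular regulatory light chain, at 3174, 2059 and 2444. Of 7 atrial markers 3 were detected (Nppa, Dkk3 and Tbx5), and those most specific to atrial muscle were near the floor. Myl7, the atrial regulatory light chain, was at 1.49, 0.129 and 0, Myl4 at 0.465, 0.379 and 0.332, Sln at 0, 0.174 and 0.185, and Bmp10 held no read in any library, which allows up to 0.0542 scaled FPKM. Nppa, which encodes atrial natriuretic peptide and is named for the atria, nevertheless stood at 251, 206 and 354. Of the 6 lung and 6 liver genes listed none was detected, and of 5 thymus genes 1 was. Of the lung genes, Sftpc, Sftpa1, Scgb1a1 and Sftpd held no read, and of the thymus genes Rag1, Rag2, Dntt and Ptcra held none, while Cd1d1, which other tissues also express, was at 1.83, 1.31 and 1.36. Of 10 skeletal muscle markers Acta1 and Ckm, which the heart also expresses, were detected. The fast myosin gene Myh4 held no read and Myh1 was at 0.0126, 0 and 0.0128, but Myl1, Mybpc2 and Casq1, all skeletal forms outside that list, were detected at levels given with their families. Y-linked Ddx3y was at 23.7, 31.4 and 19.6 and Xist at 0.0356, 0.0128 and 0.00904 in these libraries.

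A few genes held much of the signal. The 10 highest genes took 37.5 ± 4.98% of the summed FPKM (SD, n = 3). By mean level these were mt-Co1, mt-Nd1, mt-Cytb, mt-Nd2, mt-Nd4, mt-Nd5 and mt-Nd6 of the mitochondrial genome, Actc1 and Mb of muscle, and Gm23935, a miRNA entry of 57 bases at 1575, 12396 and 10476 (1124, 9255 and 7364 reads). The level of Gm23935 rests on division by only 57 bases and is uncertain, since poly-T capture does not measure mature miRNAs. Among nuclear protein-coding genes alone, the 10 highest took 13.05 ± 0.213%, the 100 highest took 35.5 ± 1.21%, and 250 to 310 genes made up 50% of the signal. At the other end, 5906 of 22046 protein-coding genes held no read in any of the 3 libraries.

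**Figure D1:**
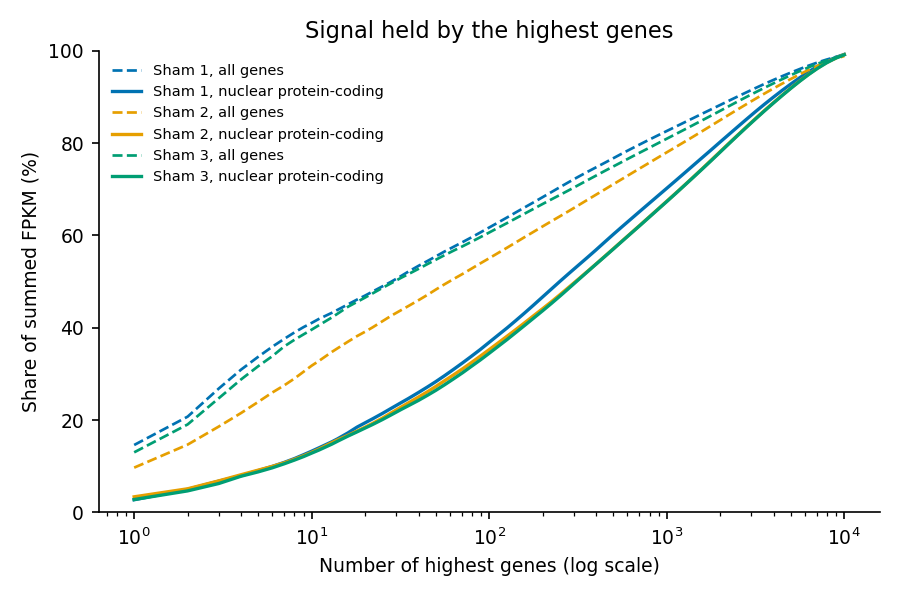
Share of the summed FPKM (vertical axis, %) held by the highest genes (horizontal axis, number of genes, log scale) in each Sham library, for all genes (dashed) and for nuclear protein-coding genes (solid). The dashed line of Sham 2 runs below the other two, with 31.8% in its 10 highest genes against 41.1% and 39.6%, while the solid lines nearly coincide at 12.9% to 13.3%.

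Mitochondrial DNA encodes 13 proteins of the respiratory chain, and its transcripts led the ranking. They included mt-Co1, the catalytic subunit of cytochrome c oxidase, at 81018, 41244 and 64679, mt-Nd1 of complex I at 33884, 21175 and 28288 and mt-Cytb of complex III at 34041, 16702 and 30008. Sham 2 was the lowest library for all 3 of these genes, and it remained so in TPM, a scale on which each library sums to the same total. In reads, the mitochondrial genome took 19.9 ± 4.68% of a library, and in summed FPKM 39.0 ± 5.74%. The 13 genes did not sit at a common level: mt-Co2 was at 3211, 3857 and 5094 and mt-Co3 at 2413, 2008 and 3334, far under mt-Co1. Lower still were mt-Atp8 at 26.6, 41.2 and 111, which overlaps mt-Atp6 (at 4842, 2918 and 4195), and mt-Nd4l at 547, 249.9 and 1141, which overlaps mt-Nd4 (at 15479, 5593 and 14279). Overlap did not always go with a low value, since mt-Nd6, which overlaps the end of mt-Nd5 on the other strand, was at 9387, 6232 and 5806. For mt-Co2, mt-Co3, mt-Atp6 and mt-Nd4l, 98.7% to 99.9% of the gene's 64-base words also occur in another annotated gene, and for mt-Atp8 none do. The share was 44.7% for mt-Co1 and 61.8% for mt-Nd4. How the authors counted reads that match 2 genes is not stated, so the low values above and those of mt-Co1 and mt-Nd4 are uncertain.

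The highest nuclear protein-coding gene in each of the 3 libraries was Actc1 (chromosome 2, 114047282 to 114053548, mm10), cardiac alpha-actin of the thin filament, at 7804, 8617 and 7199. Myoglobin, Mb (chromosome 15, 77015487 to 77050670), which stores oxygen in the muscle cell, was second in every library at 6365, 4428 and 4809.5. The next 2 were Fabp3, the muscle fatty acid binding protein that carries fuel through the cytosol, at 5059.6, 3361 and 4046, and Myh6, the alpha myosin heavy chain, at 3308, 4393 and 4129. The order of these last 2 differed between libraries, with Fabp3 ahead in Sham 1 and Myh6 ahead in Sham 2 and Sham 3. The levels of Mb and Fabp3 are uncertain, since 23.2% and 30.7% of their words occur in other genes, chiefly Gm49540 and Fabp3-ps1. Of the 20 highest nuclear protein-coding genes, 15 were the same in all 3 libraries. Besides these 4 they comprised contractile genes (Myl2, Myl3, Tnnc1, Tnni3, Tcap), the calcium pump Atp2a2, the adenine nucleotide carrier Slc25a4, mitochondrial creatine kinase Ckmt2, the ATP synthase subunits Atp5a1 and Atp5b, and the iron store Fth1. Fth1 varied least among these, at 1827, 1859 and 1939.7, a coefficient of variation of 3.09%.

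The striated myosin heavy chains separate heart from skeletal muscle and adult from fetal heart, and some of them carry a microRNA within the gene. Those of the 3 detected members are shown, 1 strand of each. Myh3, which held no read, carries mmu-miR-6923-5p, which is not shown. They are shown because each lies within a host gene whose level is given next. The sequences are from RefSeq (GRCm38.p6), with the seed, bases 2 to 8, in capitals.
mmu-miR-208a-3p (in Myh6, chr14:54949072-54949093, minus strand): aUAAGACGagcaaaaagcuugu
mmu-miR-208b-3p (in Myh7, chr14:54975710-54975731, minus strand): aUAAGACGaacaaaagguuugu
mmu-miR-499-5p (in Myh7b, chr2:155622893-155622913, plus strand): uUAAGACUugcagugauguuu
The miRNAs of Myh6 and Myh7 share the seed UAAGACG, and that of Myh7b has the seed UAAGACU. Poly-T capture of messenger RNA does not measure mature miRNAs, so only the host genes are given.

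Myh6 (chromosome 14, 54941921 to 54966927) was at 3308, 4393 and 4129 and Myh7, the beta chain (chromosome 14, 54970684 to 54994626), at 48.8, 59.9 and 57.3. The ratio of Myh6 to Myh7 was 67.8, 73.3 and 72.05, or 71.1 ± 2.91 (SD, n = 3), the order known for the adult rodent ventricle. Of the words of Myh6, 15.9% occur in another gene, most often in Myh7. Myh7b followed at 10.7, 8.10 and 8.12, and the other 6 members, those of embryonic, perinatal, fast skeletal and extraocular muscle, did not exceed 0.0258 in any library. The 3 detected members lay apart from each other.

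The light chains and the thin filament showed the same pattern of 1 leading gene. Myl3, the ventricular essential light chain, was at 2562, 1946 and 2255, and the next member, nonmuscle Myl6, at 67.4, 39.3 and 48.2. Myl1, the fast skeletal essential light chain, was still at 45.2, 30.8 and 18.0, which overlapped Myl6. Behind Myl2 stood the smooth muscle chain Myl9 at 81.7, 39.1 and 59.8 and nonmuscle Myl12a at 59.7, 46.8 and 56.1, which overlapped each other. Tnni3, the adult cardiac inhibitory troponin, was at 2197, 1709.5 and 1667, while Tnni1, the slow form of the fetal heart, was at 0, 0.0848 and 0.0225. Tnnt2, cardiac troponin T, was at 839, 769 and 616 and slow skeletal Tnnt1 at 5.47, 7.69 and 4.42. Tnnc1, the calcium sensor shared by heart and slow muscle, was at 2454, 1968 and 2079, and fast skeletal Tnnc2 held no read. Among tropomyosins, Tpm1 made up 91.2% of the family's summed level at 1074, 1024 and 906. Acta1, skeletal alpha-actin, was the second actin at 993, 974 and 634, lowest in Sham 3 on this scale and in TPM, and Actc1 exceeded it by 7.86, 8.85 and 11.3 times. The nonmuscle and smooth muscle actins Actb (129, 153 and 189) and Acta2 (128, 118 and 135) overlapped.

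Other filaments and anchors followed. Mybpc3, the cardiac myosin binding protein C, was at 886, 1015 and 963, and Mybpc2, the fast skeletal form, was detected at 10.1, 15.1 and 21.9, lowest in Sham 1. Actn2, the alpha-actinin of the Z-disc, was at 415, 618 and 649. Both M-band genes were in use, Myom1 at 127, 147 and 136 and Myom2 at 103, 92.8 and 78.5, which lay apart by a ratio of 1.52. Ttn, which encodes titin, the spring of the sarcomere, was at 22.1, 27.8 and 24.96, and the muscle kinase Speg at 13.2, 15.3 and 16.0. The level of Ttn is divided here by the gene length in the authors' table, 116825 bases. Desmin, Des, the muscle intermediate filament, was at 382, 453 and 525 and vimentin, Vim, of nonmuscle cells at 66.3, 108 and 107. Lmod2, which elongates thin filaments, was steady at 427, 416 and 408. The genes of LIM domain proteins were led by Fhl2 at 1189, 1259 and 1092 and the stretch-sensing Csrp3 at 564, 428 and 423.

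**Figure D2:**
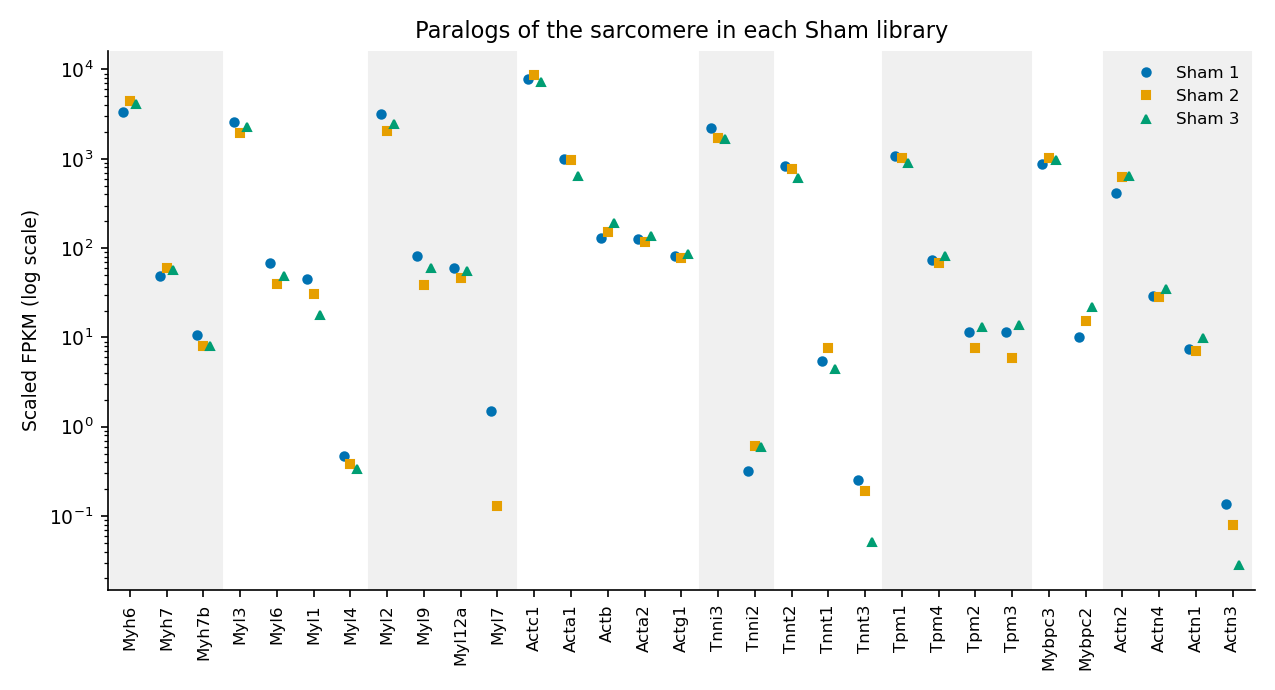
Scaled FPKM (vertical axis, log scale) of paralogs in 9 sarcomere families, shaded in turn, with 1 point for each Sham library. Each first member, such as Myh6 between 3308 and 4393, lies above all points of the second member, and a value of 0 (Myl7 in Sham 3) is not drawn.

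The 250 bases before the RefSeq start were read for genes with a RefSeq window, 19 of the 22 sarcomere family members averaging 100 scaled FPKM or more. The letters CATTCC on either strand, the core of the M-CAT element known to be bound by TEAD factors, occurred in 7 of these 19 (36.8%), in 13 of 49 sarcomere family members under that level (26.5%) and in 11.2% of all 15463 promoters read. The median number of CpG dinucleotides was 4 in the former 19, 17 over detected genes and 11 over all promoters. The windows of 3 genes with CATTCC are shown, with those letters (GGAATG on the other strand) in capitals, from highly expressed sarcomere genes of 3 kinds, a heavy chain, a light chain and a troponin.
Myh6 (chr14:54966608-54966857, minus strand): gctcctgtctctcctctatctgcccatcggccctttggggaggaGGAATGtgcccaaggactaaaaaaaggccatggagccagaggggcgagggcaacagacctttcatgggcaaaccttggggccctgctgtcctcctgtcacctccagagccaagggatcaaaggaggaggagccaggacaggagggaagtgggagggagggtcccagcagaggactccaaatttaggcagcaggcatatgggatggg
Myl3 (chr9:110763428-110763677, plus strand): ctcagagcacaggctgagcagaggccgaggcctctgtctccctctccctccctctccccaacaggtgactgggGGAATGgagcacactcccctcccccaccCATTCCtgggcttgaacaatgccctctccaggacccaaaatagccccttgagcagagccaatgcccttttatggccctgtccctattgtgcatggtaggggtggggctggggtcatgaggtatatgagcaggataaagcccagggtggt
Tnnc1 (chr14:31208062-31208311, plus strand): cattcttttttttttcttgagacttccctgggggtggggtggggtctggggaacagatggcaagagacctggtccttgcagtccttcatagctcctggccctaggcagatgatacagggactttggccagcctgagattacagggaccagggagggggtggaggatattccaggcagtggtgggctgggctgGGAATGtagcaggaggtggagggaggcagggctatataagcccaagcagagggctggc
The letters start 206 bases before the start in Myh6, 177 and 149 before it in Myl3 and 58 before it in Tnnc1. Myh6 held 2 CpG, Myl3 held 1 and Tnnc1 held 0. A match is a description of the letters, not a site shown to be used.

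Contraction is set off by calcium that enters through the L-type channel, is released through ryanodine receptors, and is pumped back by SERCA. Each step had 1 dominant gene. Atp2a2, the SERCA pump of heart (chromosome 5, 122453513 to 122502225), was at 2068, 2549 and 2236, against 3.66, 3.18 and 7.12 for Atp2a3 and 0.161, 0.022 and 0.117 for Atp2a1 of fast muscle. Phospholamban, Pln, the brake on this pump, was at 804, 589 and 524, highest in Sham 1, and the ratio of Atp2a2 to Pln was 2.57, 4.33 and 4.27. Of the words of Pln, 54.2% occur in other genes, chiefly Gm47644, so its level and this ratio are uncertain. Sarcolipin, the atrial and skeletal counterpart of Pln, was the Sln named above at or under 0.185. Ryr2, the release channel, was at 65.3, 85.6 and 78.6, and Atp2a2 stood at a steady 28.4 to 31.6 times its level. Casq2, which buffers calcium in the store, was at 362, 425 and 345. Casq1, the skeletal form, was at 16.7, 43.4 and 76.5, with a coefficient of variation of 65.8%, and 2.00% of its words occur elsewhere. Slc8a1, the sodium-calcium exchanger, was at 65.0, 89.2 and 69.3.

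The leading subunits of the L-type channel were Cacna1c (14.2, 16.3 and 18.4), Cacnb2 (5.77, 6.27 and 5.35) and Cacna2d1 (24.4, 28.3 and 20.6), and Cacna1g, a T-type channel, followed Cacna1c at 2.73, 5.75 and 5.64. Among sensors, the calmodulin genes Calm3 (94.8, 99.3 and 114) and Calm2 (111, 98.9 and 91.9), which encode the same protein, overlapped. Camk2g (10.4, 9.77 and 10.7) and Camk2d (8.75, 10.1 and 7.64), catalytic forms of CaM kinase II, overlapped as well. By reads not divided by length the mean ratio of Camk2g to Camk2d was 0.337, so their order depends on the division by gene length.

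Channels carry the currents of the cardiac action potential within a cell and from cell to cell. Gja1, connexin 43 of the ventricular gap junction, was at 40.2, 42.1 and 41.8. The rodent action potential is shaped by a fast outward potassium current. Of the genes of its channel, the accessory subunit Kcnip2 was at 57.2, 61.7 and 55.6, above the pore subunits Kcnd2 at 6.66, 10.2 and 6.26 and Kcnd3 at 1.34, 1.51 and 1.49. Kcna5, another rapid potassium channel, was at 12.6, 12.6 and 15.6 and Kcnk3, a leak channel, at 64.7, 72.7 and 81.7. The inward rectifiers were spread over 7 detected genes, of which the metabolic sensor subunits Kcnj11 (31.7, 30.7 and 30.8) and Kcnj8 (27.2, 20.6 and 22.8) were the highest, ahead of Kcnj5 (18.6, 20.2 and 16.7) and of the classical Kcnj2 (10.2, 9.02 and 8.18). Kcnj8 is also 1 of the pericyte markers used here, so its level in bulk RNA cannot be assigned to the muscle cells. Of the pacemaker channels, Hcn2 was at 10.3, 15.1 and 17.4 and Hcn4 at 2.71, 2.27 and 2.52. Atp1b1, a beta subunit of the sodium pump, was at 111, 140.3 and 98.3. The pump's regulator phospholemman, Fxyd1, was at 111, 72.6 and 108.

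The receptors named here were below the main kinase A subunits Prkaca and Prkar1a, but Chrm2 was above the adenylyl cyclase Adcy5 in every library. The beta 1 adrenergic receptor Adrb1, through which noradrenaline raises rate and force, was at 7.60, 10.9 and 10.4. Adra1b was the leading alpha 1 receptor at 9.30, 10.6 and 10.6. The muscarinic receptor Chrm2, which mediates vagal slowing, was higher than any of these at 35.9, 38.8 and 28.3, and Chrm1, Chrm4 and Chrm5 held no read. Agtr1a (14.5, 10.7 and 9.28) and Ednra (9.32, 9.52 and 9.74), the receptors of angiotensin II and endothelin, overlapped. Downstream, Adcy6 (31.0, 41.2 and 37.95) and Adcy5 (17.2, 26.2 and 21.7) were the main adenylyl cyclases and lay apart, and Prkaca (127, 112 and 114) and Prkar1a (129.8, 160.3 and 133) the main kinase A subunits. The phosphodiesterases, which end the cyclic nucleotide signal, had no dominant gene: 9 of 11 were detected, and the highest, Pde4a at 9.80, 11.9 and 11.6, held 25.7% of the family's summed level.

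The growth and endocrine signals of the heart followed. Nppa (251, 206 and 354) and Nppb (128, 103 and 179), the natriuretic peptides, kept a ratio of 1.97, 2.01 and 1.98, and both were highest in Sham 3, as they were in TPM. Their receptors Npr2 (12.03, 14.5 and 12.6), Npr1 (5.41, 7.10 and 8.68) and Npr3 (5.53, 5.03 and 3.05) were lower. Vegfb, a growth factor tied to fatty acid uptake in muscle, was at 146, 129 and 145, above the angiogenic Vegfa at 37.8, 37.3 and 36.2, by a factor of 3.79 ± 0.286 (SD, n = 3). This factor was 1.42 by reads not divided by length. The 3 TGF beta ligands were low, Tgfb3 (6.11, 6.996 and 7.19) and Tgfb1 (5.29, 5.84 and 8.85) overlapping and Tgfb2 (2.37, 3.22 and 2.70) below them. Fgf1, the leading FGF, was at 26.0, 46.4 and 20.2, highest in Sham 2.

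Energy metabolism used mostly muscle forms of its enzymes. For glucose the transporter was Slc2a4, the insulin-responsive carrier, at 117, 111 and 112, against 4.33, 3.29 and 4.63 for the basal carrier Slc2a1. The steps of glycolysis were led by the muscle isoenzymes Hk2 (52.7, 57.3 and 52.4), Pfkm (329, 328 and 311), Aldoa (754, 838 and 817), Pgam2 (642, 615 and 608) and Eno3 (909, 988 and 929). Eno3 exceeded Eno1 49.1 ± 4.56 times and Pgam2 exceeded Pgam1 24.8 ± 1.53 times (SD, n = 3 each). These mean ratios were 15.9 and 11.4 by reads not divided by length. Hk2 was the lowest of these 5, and Pfkm stood at 5.97 ± 0.253 times its level. Ldhb, the heart form of lactate dehydrogenase, was at 1029.5, 853 and 771 and Ldha, the muscle form, at 247, 257 and 284. The glycolysis list had a median coefficient of variation of 6.56% over its 14 detected members, against 12.8% over all detected genes. The 15th member, Gapdh, was listed at only 1.121, 0.757 and 0.746, and 23.6% of its words occur in 158 other genes, so this level is uncertain.

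Fuel from fat enters by Cd36 at 659, 588 and 505 and moves on Fabp3, which stood at 25.8 times the level of Fabp4 of endothelial cells and fat (200.1, 139.6 and 145). By reads not divided by length the mean ratio of Fabp3 to Fabp4 was 4.73. Both ratios are uncertain, since 30.7% of the words of Fabp3 occur in other genes. Acsl1, which activates fatty acids, was at 133, 112 and 99.5 and held 89.0% of its family. The beta-oxidation enzymes Acaa2 (613, 554 and 535), Acadl (596, 517 and 477) and Acadm (365, 330.2 and 252) were among the highest of the list. Cpt1b, the carnitine transferase of muscle, was listed at 1.26, 0.204 and 0.649, but 77.8% of its words occur in another entry, Gm44502, so its level is uncertain. Ketone bodies are used through Oxct1, one of the 10 least variable protein-coding genes averaging 5 or more, at 421, 424 and 425 (coefficient of variation 0.489%). Pdk4, which blocks glucose oxidation when fat is burnt, was at 178, 137 and 56.9, above Pdk2 (106, 114 and 140.0) in Sham 1 and Sham 2 and below it in Sham 3. Ucp3 of muscle mitochondria had the same order of libraries, at 23.3, 15.8 and 5.41.

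Creatine kinase passes phosphate from mitochondria to the filaments. Its mitochondrial form Ckmt2 was at 1780.1, 1524 and 1441 and its cytosolic muscle form Ckm at 495, 318 and 519, a ratio of 3.60, 4.79 and 2.77. Slc25a4, which exports ATP, was at 2358, 1975 and 1941, against 211, 167 and 178 for Slc25a5. Cytochrome c oxidase showed tissue-specific subunits, with the heart and muscle forms Cox6a2 (1793, 975 and 1631), Cox8b (1819, 894 and 1056) and Cox7a1 (1093, 435 and 461) above, by mean, the general forms Cox6a1 (149, 125 and 145), Cox8a (213, 119.6 and 188) and Cox7a2 (539, 242 and 351). The first 2 pairs lay apart, and Cox7a1 and Cox7a2 overlapped. All 36 listed nuclear subunits of complex I, all 4 of complex II, 9 of complex III, 10 of complex IV and 15 of complex V were detected. Subunits of 1 complex did not share a level: the middle 50% of complex I spanned a 2.76-fold range and that of complex IV a 3.33-fold range. Ndufb2 was lowest in complex I at 6.68, 4.18 and 4.596 and Atp5l in complex V at 83.6, 44.7 and 44.3. Atp5e of complex V was at 20.46, 149 and 78.7, with Sham 1 the low library. The promoter windows of 59 of the 74 nuclear subunits held a median of 14 CpG. The ETS-type letters CCGGAAG occurred in 10 of the 59 (16.9%), against 15.1% of detected genes and 9.77% of all promoters, a share near that of detected genes. The window of Cox6b1, a subunit at 1005, 722 and 721, is shown as an example, with these letters (CTTCCGG on the other strand) in capitals, 28 bases before the start.
Cox6b1 (chr7:30626115-30626364, minus strand): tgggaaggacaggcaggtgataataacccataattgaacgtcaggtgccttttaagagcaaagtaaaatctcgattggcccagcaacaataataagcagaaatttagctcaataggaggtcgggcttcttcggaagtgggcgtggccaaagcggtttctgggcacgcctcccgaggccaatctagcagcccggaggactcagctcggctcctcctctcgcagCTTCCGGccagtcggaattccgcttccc

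Over all 118 families described, 371 of 538 members were detected. The same gene was highest in every library in 110 families, and in 102 all its values lay above those of the second. The highest member held a median of 88.9% of its family's summed level in the 20 sarcomere families, 87.5% in the 29 energy families and 89.4% in the 13 calcium families. In the 12 electrical families this median was 75.1%, in the 10 transcription families 58.8% and in the 16 signalling families 58.3%. In the 12 matrix families it was 55.7%, and in the 6 families of protein quality control and translation it was 45.9%. The 8 families whose first member differed between libraries were the calmodulins, the CaM kinases II, the receptors of angiotensin and endothelin, the TGF beta ligands, the pyruvate dehydrogenase kinases, the uncoupling proteins, the HEY factors (Heyl 6.59, 7.20 and 7.42, Hey1 4.96, 7.67 and 8.12) and the HSP70 family (Hspa9 242, 219 and 183, Hspa8 173, 182 and 204). Of 420 pairs of neighbours in the order of levels, 299 lay apart.

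**Figure D3:**
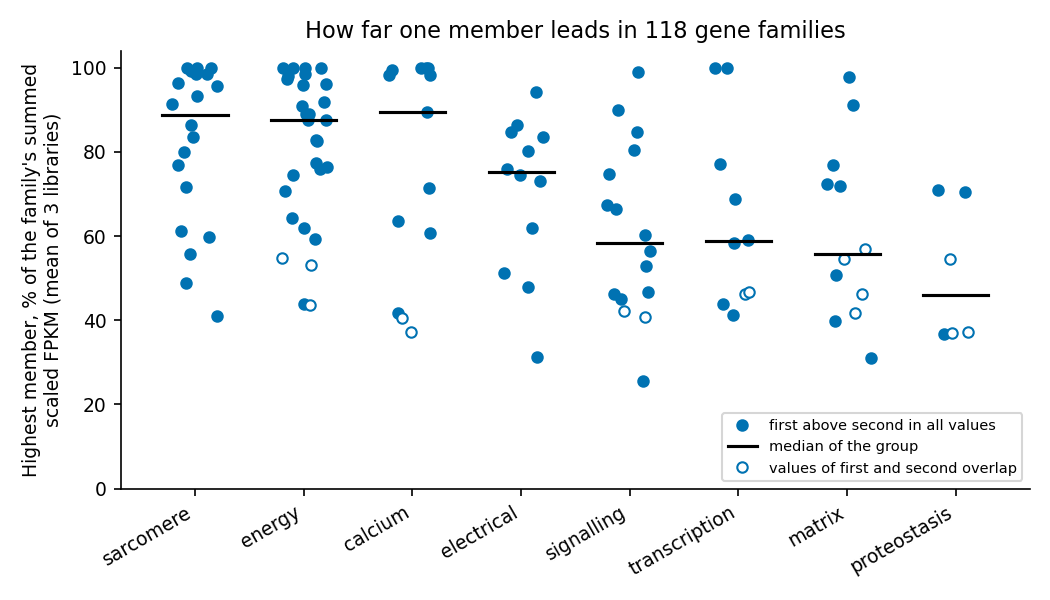
Share of each family's summed scaled FPKM held by its highest member (vertical axis, %, mean of 3 Sham libraries), 1 point per family, grouped by theme, with the median as a bar. Sarcomere, energy and calcium families have medians between 87.5% and 89.4%, transcription families 58.8%, signalling families 58.3% and matrix families 55.7%. Open points are families in which the values of the first and second members overlap.

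Cardiac transcription factors were far below the structural genes. Of 1451 protein-coding transcription factor genes by the deposited annotation, 637 were detected, with a median of 4.21 scaled FPKM against 6.78 for all detected protein-coding genes. The highest were Ybx1, a general RNA and DNA binding protein, at 277, 239 and 277, and Hopx, a homeodomain protein of the heart that binds no DNA itself, at 132, 106 and 71.8, followed by Nfe2l1 (98.5, 85.6 and 90.3), Irf7 (48.3, 57.7 and 95.5) and Esrra (65.7, 55.8 and 57.8). These 5 were chosen after their values were seen. Nkx2-5, a central regulator of heart development, ranked 10 at 35.5, 43.7 and 53.4, and the other 4 genes of its family did not exceed 0.181 in any library. Gata4 (28.0, 29.5 and 26.6) lay above Gata6 (12.7, 13.1 and 14.6), Tbx20 (9.96, 12.8 and 12.4) above Tbx5 (4.07, 4.197 and 4.35), and Srf (30.1, 27.2 and 36.05) above Myocd (5.88, 5.09 and 6.94). Mef2d (26.0, 30.7 and 31.1) led Mef2a (14.2, 14.7 and 11.7) per length, but by reads not divided by length the ratio was 0.892. Hand2 was at 15.8, 14.9 and 17.2 while Hand1 held no read. The TEAD family was led by Tead1 at 12.9, 15.6 and 16.4, with 77.0% of its summed level. Irx4, a ventricular factor, was at 9.07, 9.90 and 12.6. Of the regulators of mitochondrial genes, Esrra exceeded Esrrg (7.89, 8.23 and 7.64), and Ppargc1a was at 14.6, 12.96 and 9.53 and Ppara at 9.47, 9.17 and 6.89.

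Basement membrane genes were the highest collagens. Col4a1 (101.2, 204 and 211) and Col4a2 (77.6, 143 and 153), the chains of basement membrane collagen, were above Col3a1 (61.6, 136 and 157), Col1a1 (31.5, 103 and 111) and Col1a2 (26.4, 55.7 and 56.8), the fibrillar chains, by mean level, with ranges that overlapped. Decorin, Dcn, was at 238, 187 and 186. Of the laminin chains, 3 alpha, 3 beta and 2 gamma were detected. The highest of each kind by mean level were Lama2 (19.0, 25.8 and 21.2), Lamb2 (60.8, 99.0 and 89.8) and Lamc1 (57.5, 89.8 and 84.9). Lama2 held 46.3% of the alpha family's summed level, and its values overlapped those of Lama4. Among the laminin receptors, the highest beta and alpha integrins were Itgb1 (168, 197 and 156) and Itga7 (24.4, 34.0 and 28.9). Sham 1 was the low library for 16 of the 17 detected collagen chains of 25 listed, against 36.5% of all detected genes, and in TPM for all 17, against 63.1%. Examples are Col6a2 (18.0, 36.8 and 42.6) and Col6a3 (4.64, 11.3 and 13.5). Some collagen genes are long, such as Col1a1 with 6563 bases and Col6a3 with 11963. Nuclear protein-coding genes of 6000 bases or more averaging 5 or more had a median log2 ratio to the mean of -0.08 in Sham 1. The part of gene length in the collagen order was not tested. Dcn was highest in Sham 1 on this scale and in Sham 2 in TPM. Of the markers of activated fibroblasts, Postn was at 9.15, 17.5 and 14.2, Fn1 at 8.41, 9.89 and 13.4 and Cthrc1 at 0.251, 0.144 and 0.255. The inhibitor Timp2 was at 55.2, 54.6 and 57.6 and Timp1, which is induced in injury, at 1.98, 4.04 and 2.92. Per length Timp2 lay apart from Timp3 (43.0, 30.5 and 22.2), while by reads their mean ratio was 0.905.

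Protein quality control had several strong members per family. Hspb7 (799.8, 707 and 862) and Cryab (701, 578 and 596), small heat shock proteins of muscle, lay apart, and all 7 listed members were detected. Hsp90ab1 was at 429.6, 508 and 481, ahead of Hsp90aa1 at 39.5, 51.6 and 47.2. The inducible Hspa1b was at 0.199, 0.409 and 0.636, though Hspa1a and Hspa1b share most of their sequence. Translation used both elongation factors, the muscle and neuron form Eef1a2 at 598, 747 and 778 and the general Eef1a1 at 577, 574 and 603, whose values overlapped. Of the words of Eef1a1, 32.4% occur in 17 other genes, so its level and this overlap are uncertain. The 4 muscle ubiquitin ligases Trim54 (98.6, 67.9 and 75.8), Trim63 (69.7, 67.1 and 74.96), Trim55 (47.0, 35.3 and 35.3) and Fbxo32 (27.2, 35.2 and 18.3) were all in use. Genes that rise in stressed hearts were not silent: Ankrd1, a mechanically sensitive repeat protein of the sarcomere, was at 1164, 1243 and 1389 and Xirp2 at 33.8, 42.8 and 56.3, whereas Gdf15 was at 0.259, 0.165 and 0.219.

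Other cell types were present in the RNA. All 12 endothelial markers were detected, among them Cav1 (150.2, 166 and 178), Cdh5 (76.6, 93.3 and 121) and Pecam1 (51.4, 51.2 and 58.3). All 12 resident fibroblast markers were detected, from Gsn (743, 645 and 547) to Tcf21 (4.52, 3.25 and 6.63), as were the 8 pericyte markers, led by Rgs5 (170.5, 210.4 and 182), and the 6 lymphatic endothelial markers. Macrophages were represented by all 13 markers, led by Lyz2 (304, 186 and 220.2) and C1qa (123, 77.2 and 114). Of 10 T and NK cell markers only Gzma was detected (2.22, 1.21 and 2.58), and Cd3e was at 0.157, 0.0561 and 0.0398. Of 6 neutrophil markers 3 were detected, S100a9 (5.05, 3.51 and 10.7), S100a8 (3.34, 1.98 and 5.96) and Retnlg (1.48, 1.16 and 3.56), each highest in Sham 3, against 33.4% of all detected genes, and also in TPM, against 18.8%. Erythroid Hba-a1 (539, 1086 and 832) and Hbb-bs (807, 959.7 and 569.9), from blood, were high. Their levels are uncertain, since 69.9% of the words of Hba-a1 occur in Hba-a2 and 52.3% of those of Hbb-bs in Hbb-bt. Of 7 neuron markers only Dbh was detected, at 2.25, 3.72 and 4.40, and Th held no read. Of 8 adipocyte markers only Cidea was detected, at 18.5, 17.0 and 15.05, and Adipoq was at 0.231, 0.553 and 0.646. Of 8 mesothelial and epicardial markers, genes of the outer surface of the heart, only Wt1 was detected, at 1.147, 1.36 and 1.31, lowest in Sham 1. Upk3b (7.87, 0.584 and 0.482) and Msln (4.53, 0.903 and 0.153), which did not reach 1 in every library, had their highest values in Sham 1.

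All 20 listed interferon response genes were detected, from Iigp1 (333, 178 and 236) and Igtp (248, 128 and 265) to Mx1 (3.06, 4.05 and 3.60), with Isg15 at 113, 96.4 and 133. Sham 1 was the low library for 14 of these 20, against 36.5% of all detected genes, and with TPM for 17 of 20, against 63.1%. The clock list, which follows the time of day, had high Dbp (37.0, 42.7 and 44.5), Nr1d2 (37.4, 45.1 and 35.1) and Nr1d1 (22.7, 23.8 and 41.3) and low Arntl (0.149, 0.213 and 0.377) and Npas2 (0.433, 0.574 and 0.152) in every library. The ratio of Dbp to Arntl was 249, 200.2 and 118.

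The spread over the libraries was small for most genes but above counting error. The median coefficient of variation was 13.5% over the 11864 genes averaging 1 scaled FPKM or more. Among nuclear protein-coding genes it was 14.7% between 1 and 5 scaled FPKM, 11.5% between 5 and 20, and 12.5% at 500 or more, where counting alone would give 0.696%. The lowest values, Cdkn1b (10.5, 10.5 and 10.5), Calr (103, 103 and 103) and Nxf1 (15.2, 15.2 and 15.2), lay under their own counting error (4.06%, 1.64% and 2.95%). The spread also moved with gene length. For the 200 nuclear protein-coding genes under 1000 bases that averaged 5 or more, the median log2 ratio to the 3-library mean was 0.25 in Sham 1, -0.25 in Sham 2 and -0.09 in Sham 3. For the 1555 such genes of 6000 bases or more it was -0.08, 0.06 and 0.01. Short genes thus had their highest value in Sham 1 in 76.0% of cases and long genes in 19.5%.

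Several of the most variable genes have near copies. Of the 15 highest coefficients of variation among protein-coding genes averaging 5 or more, 9 belonged to genes with 5% or more of their words elsewhere, such as Rpl26 (124, 0.529 and 1.52) and Capza1 (3.17, 4.40 and 13.5, 60.8%). Among protein-coding genes at that level, a coefficient over 50% was found in 0.639% of the 4852 with under 5% of words shared. Such a coefficient was found in 1.103% of the 1088 with 5% to 25% and in 3.82% of the 314 with 25% or more. The other 6 of the 15 were Nr4a1 (14.1, 3.68 and 3.72), an immediate early gene, H2-Aa (24.3, 9.98 and 4.50) and H2-Ab1 (22.3, 7.79 and 5.25) of antigen presentation, Atp5e, mt-Atp8 and Wfdc17 (20.8, 6.30 and 6.54).

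**Figure D4:**
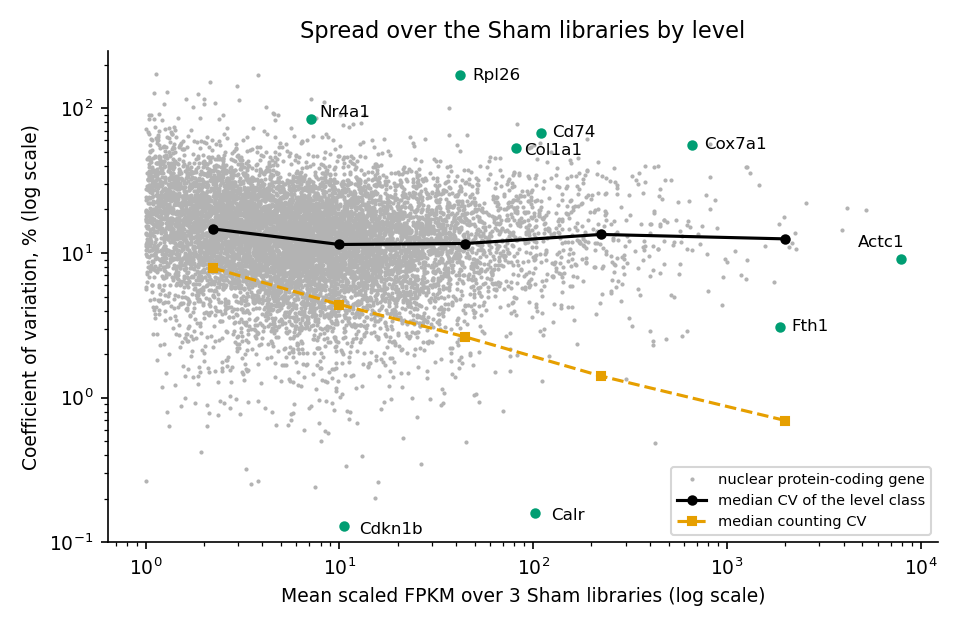
Coefficient of variation over the 3 Sham libraries (vertical axis, %, log scale) against mean scaled FPKM (horizontal axis, log scale) of nuclear protein-coding genes, with the median in 5 level classes (black) and the median expected from counting reads (orange). The black line stays between 11.5% and 14.7% while the orange one falls to 0.696%, and named genes are marked in green.

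Some lists moved as a block between libraries. All 5 detected genes of MHC class II, which presents antigen on macrophages, dendritic cells and B cells, were highest in Sham 1, against 36.6% of all detected genes, and were so in TPM, against 11.5%. All 5 were lowest in Sham 3, against 32.6% of all detected genes (29.5% in TPM). Among them the chaperone Cd74 was at 193, 82.1 and 52.6 and H2-Eb1 at 38.04, 22.8 and 8.70. General macrophage markers did not share this order: 3 of 13 were highest in Sham 1 and 9 in Sham 3, against 33.4% of detected genes (2 and 7 in TPM), and Csf1r was at 15.3, 15.4 and 17.5. Of 10 MHC class I genes 9 were lowest in Sham 2, against 31% of detected genes, and in TPM 5 of 10, against 7.42%. Among them B2m was at 1854, 968 and 1143 and H2-K1 at 72.8, 29.5 and 74.9. Of 11 detected immediate early genes 8 were lowest in Sham 2, against 31% of detected genes, and in TPM 3 of 11, against 7.42%. Their highest library differed, with 5 highest in Sham 1 and 6 in Sham 3, against 36.6% and 33.4% (4 and 5 in TPM, against 11.5% and 18.8%). Nr4a1 and Egr1 (11.4, 5.64 and 3.44) were highest in Sham 1. So was Fos (5.13, 1.17 and 0.552), which did not reach 1 in every library and is not among the 11. Jun (18.1, 14.6 and 19.5) and Klf2 (39.2, 31.5 and 53.3) were highest in Sham 3. The highest library of these 5 was the same in TPM.

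Most genes of several energy lists, and of the proteasome, were highest in Sham 1 on the main scale, against 36.6% of all detected genes. This held for 10 of 10 nuclear subunits of complex IV, 35 of 36 of complex I, 8 of 9 of complex III, 12 of 15 of complex V, 17 of 18 genes of the TCA cycle and 19 of 20 of fatty acid oxidation. Many of these genes are short, with a median length of 1172.5 bases in complex IV and 1635 in complex I, but those of the TCA cycle (3835.5) and fatty acid oxidation (3590) are not. Of nuclear protein-coding genes of 2500 to 4000 bases averaging 5 scaled FPKM or more, 42.9% were highest in Sham 1. The order was not particular to energy genes, since 12 of 14 subunits of the 20S proteasome were highest in Sham 1 (6 in TPM). Of glycolysis genes, 4 of 14 were highest in Sham 1 (0 in TPM). With TPM, which moves the median of all detected genes by -0.18 in Sham 1 and 0.20 in Sham 2 on the log2 scale, the 6 counts for the energy lists were 7 of 10, 21 of 36, 4 of 9, 7 of 15, 3 of 18 and 4 of 20, against 11.5% of all detected genes. Targets of PPAR alpha, the fatty acid sensor, were highest in Sham 1 in 9 of 10 cases, with a median log2 ratio of 0.35 there and -0.36 in Sham 3, with Pdk4 and Ucp3 as given and Angptl4 at 4.57, 2.95 and 1.83. Known targets of glucocorticoids with the metallothioneins were highest in Sham 1 in 9 of 9, with Fkbp5 at 9.02, 5.33 and 3.55, Zbtb16 at 22.2, 17.1 and 13.7 and Mt1 at 130.4, 81.7 and 70.2. With TPM these 2 counts were 4 of 10 and 4 of 9, and Pdk4 and Zbtb16 were then highest in Sham 2. The part of gene length, library composition or the hearts themselves in these orders was not tested.

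**Figure D5:**
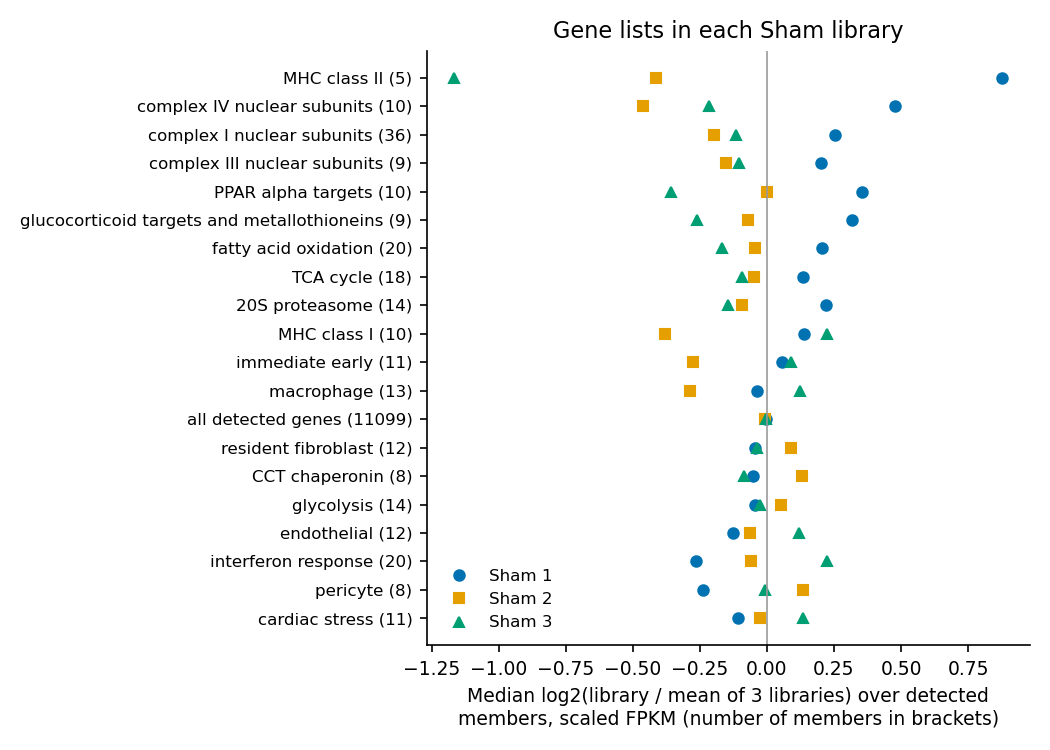
Median log2 ratio of each Sham library to the mean of the 3 (horizontal axis, scaled FPKM) over the detected members of 19 gene lists and over all detected genes (vertical axis, number of members in brackets). MHC class II spans from -1.17 in Sham 3 to 0.88 in Sham 1, the complex IV subunits from -0.46 in Sham 2 to 0.48 in Sham 1, and all detected genes lie at about 0.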

How the data were processed

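The authors deposited, per the file headers, 1 table of FPKM per gene for the 12 mouse heart libraries, with gene names, coordinates, lengths and types. Per the submitters' processing notes, the tools were featureCounts 1.5.0-p3, HISAT2 2.0.5 and fastp, with the builds mm10 and Rnor_6.0. The setting for strand and for reads that match 2 genes is not given in the sources used here. Poly-T beads selected the RNA, per the labels' protocols. The 3 Sham columns were read. Whole reads were recovered from the FPKM steps for 100% of values at a tolerance of 0.02, so depth is known, but no count model was used. Each column was divided by its median ratio over 11098 genes (factors 0.993 to 1.01). Detected means 1 scaled FPKM in every library. Words are the distinct 64-base stretches of a gene's GENCODE transcripts, on either strand. Scripts were tested on simulated data (Python 3.11.15, numpy 2.4.6, pandas 2.3.3).

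Genes were named by rank in their family or list, by level or by spread. A few genes, and the length dependence of 2 pairs with them, are not reported here. Other genes named were chosen after their values were seen. Members and lists were chosen with earlier results of these data known. Values for the same library on TPM were made from the deposited FPKM. Sequences are from RefSeq (GRCm38.p6), matched for 15463 of 22005 genes looked up.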

Additional observations from a re-analysis of the deposited data

How the results depend on the processing

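No paired analysis was possible because a single group was described. At 5 scaled FPKM 6064 genes were detected, against 11099 at 1, and leaving out 1 library gave 11327 to 11334. The 10 highest genes took 23.5% of recovered reads and 13.9% of FPKM without the mitochondrial genome, against 37.5%, and 35.7% to 40.3% without 1 library. The median coefficient of variation was 26.5% without a filter on level, against 13.5%, and 9.72% to 12.5% without 1 library. The same member led 111 to 115 of 118 families without 1 library, against 110. By reads not divided by length, the mean ratio of the first to the second member of a family moved by more than its SD in 84 pairs. It stayed within its SD in 25, so the size of most ratios depends on gene length. Of the pairs reported here, 3 that lay apart reversed by reads, with ratios of 0.873 for Adora2a to Adora1, 0.892 for Mef2d to Mef2a and 0.905 for Timp2 to Timp3. The order also turned in 6 pairs that overlapped (Camk2g and Camk2d, Agtr1a and Ednra, Tgfb3 and Tgfb1, Cox7a1 and Cox7a2, Col6a1 and Col6a2, Trim54 and Trim63), with ratios of 0.337 to 0.971. TPM, chosen as a scale for the list counts after seeing the data, moved 49 of 98 of them. Depth limits genes near the value of 1 read.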

Other observations

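Of 12 listed cell cycle genes 5 were detected. Mki67, a marker of proliferating cells, was at 1.21, 3.30 and 4.24, Top2a at 1.16, 2.56 and 3.13, Ccnb2 at 1.56, 2.94 and 3.44, Pcna at 15.3, 12.2 and 15.2 and Mcm2 at 2.12, 1.53 and 1.95. The lowest value was in Sham 1 for 3 of the 5, against 36.5% of all detected genes. With TPM, 4 of 5 were lowest in Sham 1, against 63.1% of all detected genes.

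The dystrophin complex, which ties the sarcomere to the matrix, was detected in all 9 members, with Dag1 at 77.9, 89.8 and 83.9, Sgca at 75.1, 84.3 and 108 and Dmd itself at 6.67, 9.29 and 6.76. Among long noncoding RNAs, Gm10076 was highest at 50.1, 100.6 and 114, but 59.8% of its words occur elsewhere, chiefly in Rpl41. Malat1, a nuclear RNA, was at 48.7, 67.9 and 44.4 and Gm5532 at 58.8, 67.7 and 54.6. C130080G10Rik, annotated as antisense next to Actc1, was at 37.9, 38.4 and 32.8.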
